A study of Drosophila melanogaster with 40 samples.

Results

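The proteasome subunits and their testis paralogs were 47 genes of the 17490 in the count table, taken as every gene whose name starts with Prosalpha, Prosbeta, or Rpn or Rpt and a number. Of these, 32 were canonical subunits (7 alpha, 7 beta, 12 Rpn and 6 Rpt) and 15 were paralogs, whose names are those of a canonical parent with T or R added (4 alpha, 6 beta, 2 Rpn and 3 Rpt, from 11 parents). RNA was measured in whole Drosophila melanogaster, in pools of 10 animals, and each library is named by its genotype, its set and its replicate number. The 4 genotypes carried UAS-WT-MYBPC3, UAS-A31P-MYBPC3 or UAS-R820W-MYBPC3 (feline MYBPC3, in the attP2 site) or the empty attP2 site, each over TinCΔ4-Gal4, a driver active in the heart, in a w1118/y, w; Chr2/+ background, so the control also carried the driver. The 5 sets were larvae at the third instar, whose sex the labels do not give, and nonexercised and exercised females and males at 1 week of age, where exercise was 1 h on a shaker, which made 20 groups of 2 replicates and 40 libraries. Each transgene sat at 1 insertion site and was driven in the heart, whereas RNA came from whole bodies. The series was made to compare the MYBPC3 lines with each other and with attP2, and the same libraries give each subunit by stage, sex and exercise.

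The proteasome degrades proteins that carry ubiquitin chains. Its core particle is a barrel of stacked rings: the outer rings, built of alpha subunits, gate the entrance, and the inner rings, built of beta subunits, hold the proteolytic sites of Prosbeta1, Prosbeta2 and Prosbeta5. The regulatory particle binds and prepares the substrate, with a ring of Rpt ATPases that unfolds it, and Rpn subunits that act as scaffold (Rpn1, Rpn2), ubiquitin receptors (Rpn1, Rpn10, Rpn13) and deubiquitinase (Rpn11). In Drosophila, many subunits have a gene copy that is expressed in the male germline, where Prosalpha6T is needed for normal spermatogenesis.

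The libraries held 18493813 to 26917796 counts (median 21691892), of which 0.225% to 0.630% were on the 47 genes. Levels are counts per 1000000 of the effective library size (CPM), which compare 1 gene between libraries. Where the order of genes is given, the levels are CPM per kb of exon, and named so. Of 20 testis markers, all had a median over 1 CPM in larvae and in both male sets, whereas 16 were under 1 CPM in each female set, aly was at 0 in all nonexercised females, and Mst84Dd and sa were at 0 in all exercised females. The summed testis markers were 1844 to 2655 CPM in males, 267 to 924 CPM in larvae and 109 to 156 CPM in females, in which bol and twe gave most of the sum. In exercised males, the summed 14 ovary and eggshell markers were 19.7 to 23.9 CPM in 6 libraries, but 2196 CPM in A31P replicate 2 and 206 CPM in R820W replicate 2 (females 2730 to 6776 CPM). Nonexercised and larval libraries were sequenced by replicate number in lanes 7 and 8, exercised females in lane 1 and exercised males in lane 3 of another flow cell. The effect of exercise and that of the flow cell cannot be told apart, nor can sex and lane among exercised flies. In whole bodies, fewer cells of a type and less RNA per cell cannot be told apart.

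A single canonical subunit, Prosalpha1 (chromosome 2R, 7827303 to 7828678, minus strand), was nearly absent from the table. It had 902 counts over 40 libraries, with 0 in 26 libraries and 9 to 114 in the other 14. Its neighbour CG30382, 1734 bases away on the same strand (7830413 to 7831771) and named Prosalpha1R in the reference annotation, held 112560 counts, with 1496 to 4240 in each library. Prosalpha1 therefore took at most 4.82% of the counts on both genes in any library. The summed level of both genes had a median of 221 CPM in larvae, 107 and 163 CPM in females before and after exercise, and 85.3 and 90.5 CPM in males. How reads with several hits were counted is not given in the sources used here, so both genes are uncertain, and whether they share reads was not tested. Prosalpha1 passed the filter but was not called in any stage, sex or exercise comparison, and medians of canonical subunits are given without it where that is stated.

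**Figure D1:**
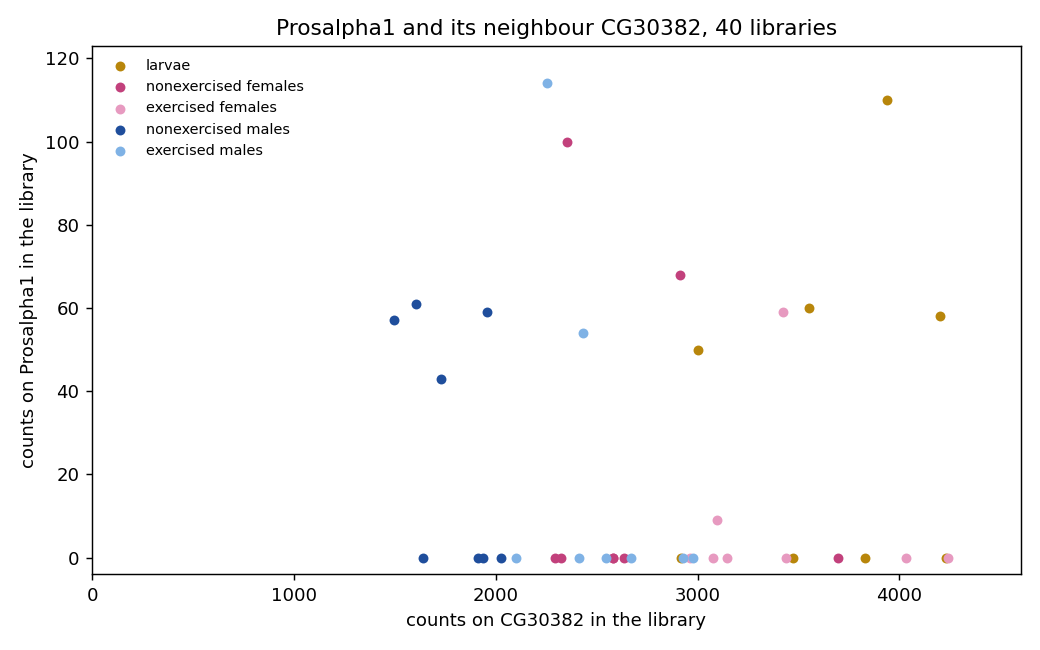
Counts on Prosalpha1 (vertical axis) against counts on its neighbour CG30382 (horizontal axis), 1 point for each of 40 libraries, coloured by set. In 26 libraries Prosalpha1 lay at 0, and in the other 14 it held 9 to 114 counts, whereas CG30382 held 1496 to 4240 in every library.

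The paralogs differ from their parents in gene structure and position. In the annotation, 6 of the 15 paralogs (Prosalpha3T, Prosalpha4T1, Prosalpha6T, Prosbeta5R2, Rpn12R and Rpn13R) had no intron in any transcript, as did 1 of the 11 parents (Rpn12) and 4 of all 32 canonical genes. Compared with its own parent, a paralog had fewer introns in 10 cases, as many in 5 and more in 0. Of the parents, Prosalpha4, Rpt3, Rpt4 and Rpt6 lie on the X chromosome, as does none of the 21 canonical genes without a paralog, while 15.1% of all genes in the table lie there. The 5 paralogs of these X-linked parents are all on autosomes. Prosbeta2R1 and Rpn13R are on X and have autosomal parents, and Prosbeta4R1 and Prosbeta4R2 are neighbours on chromosome 2L, 1467 bases apart.

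Summed, the 15 paralogs were highest in males, lower in larvae and nearly absent in females. Their summed level had a median of 257 CPM in nonexercised males (184 to 273) and 263 CPM in exercised males (214 to 283). In larvae, the sum was 126 CPM (55.7 to 194), and only 1 larval library, A31P replicate 2, lay within the range of the nonexercised males. In nonexercised females it was 1.07 CPM (0.902 to 1.80), and in exercised females 1.13 CPM (0.612 to 1.60), and the female sets overlapped. The 2 female sets held 244 and 190 paralog counts in all, against 17329 in larvae and 42577 and 56780 in the male sets. Of the 120 paralog values in each set, 61 were 0 in nonexercised and 81 in exercised females, and none was 0 in larvae or males.

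**Figure D2:**
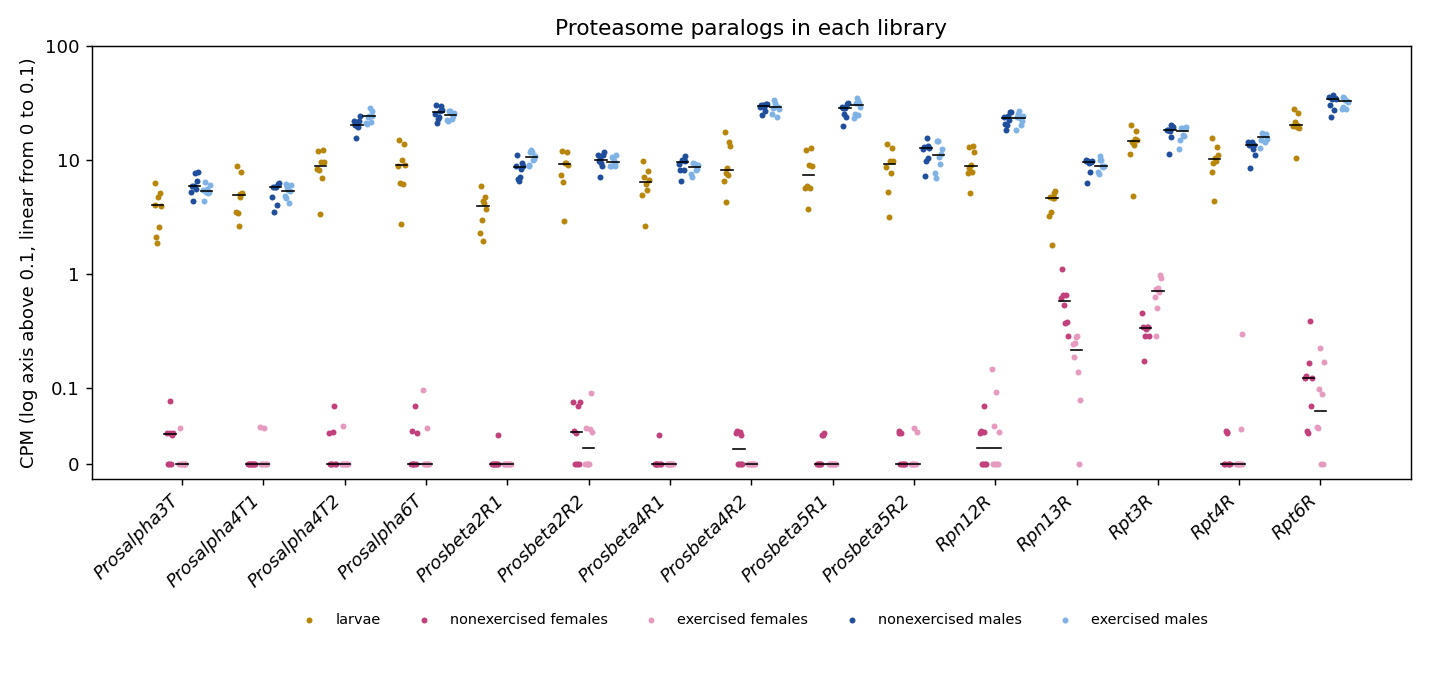
Level of each of the 15 paralogs in CPM, 1 point per library and 8 libraries for each of the 5 sets. Black bars are medians, and the axis is logarithmic above 0.1 CPM and linear from 0 to 0.1 CPM. Every male and larval point lies above 1 CPM, whereas among the female sets Rpn13R, Rpt3R and Rpt6R alone have medians above 0.1 CPM in nonexercised females.

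Among the alpha ring paralogs, Prosalpha6T (2L, 13232039 to 13233058, plus strand), a copy of Prosalpha6, had the highest median per kb in both male sets. Its level was 20.9 to 30.1 CPM in nonexercised males (median 26.2), 22.0 to 27 in exercised males (24.9) and 2.71 to 14.9 in larvae (9.0), and it had 4 and 3 counts over the 8 nonexercised and 8 exercised female libraries. Prosalpha4T2 (2R, 24500780 to 24502277, minus strand), a copy of the X-linked Prosalpha4, had 15.5 to 24.1 CPM in nonexercised males (20.4), 20.6 to 28.4 in exercised males (24.1) and 3.36 to 12.2 in larvae (8.89). The larval values of both genes lay below every male value. Prosalpha4T1 (3R, 20748184 to 20749074, minus strand), another copy of Prosalpha4, had 3.51 to 6.31 CPM in nonexercised males (5.76), 4.16 to 6.10 in exercised males (5.38) and 2.65 to 8.79 in larvae (4.88), and was at 0 in all nonexercised females. Prosalpha3T (3R, 31122527 to 31123415, minus strand), a copy of Prosalpha3, had 4.39 to 7.80 CPM in nonexercised males (5.91), 4.32 to 6.41 in exercised males (5.33) and 1.87 to 6.22 in larvae (4.0). For these latter 2 genes the larval and male libraries overlapped.

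The 6 beta ring paralogs come in pairs, which copy Prosbeta2 (the trypsin-like subunit), Prosbeta4 and Prosbeta5 (the chymotrypsin-like subunit). Prosbeta5R1 (2R, 23308654 to 23309816, minus strand) had 19.8 to 31.3 CPM in nonexercised males (28.4), 23.1 to 34.6 in exercised males (30.5) and 3.68 to 12.7 in larvae (7.32). Prosbeta5R2 (2L, 17990418 to 17991951, plus strand) had 7.29 to 15.7 CPM in nonexercised males (12.7), 6.89 to 14.6 in exercised males (10.9) and 3.16 to 13.8 in larvae (9.19). Per kb, the medians in nonexercised males were 25.7 for Prosbeta5R1 and 8.28 for Prosbeta5R2, with no overlap between the 2 genes, whereas in larvae they were 6.61 and 5.99. Prosbeta4R2 (2L, 2655394 to 2657102, plus strand) had 24.6 to 31.2 CPM in nonexercised males (29.7), 23.6 to 33.2 in exercised males (28.9) and 4.26 to 17.5 in larvae (8.12). Its neighbour Prosbeta4R1 (2L, 2653046 to 2653926, plus strand) had 6.54 to 10.8 CPM (9.54), 7.10 to 9.36 (8.63) and 2.65 to 9.72 (6.38) in the same order of sets. Per kb, Prosbeta4R2 and Prosbeta4R1 had medians of 17.6 and 10.4 in exercised males, with no overlap, and 4.93 and 7.69 in larvae, where their ranges overlapped. Prosbeta2R1 (X, 5808954 to 5810158, plus strand) had medians of 8.60, 10.5 and 3.95 CPM in nonexercised males, exercised males and larvae, and Prosbeta2R2 (3R, 5217751 to 5219528, minus strand) had 9.98, 9.57 and 9.18 CPM. Per kb, the Prosbeta2 copies had medians of 7.98 and 7.56 in nonexercised males and 3.66 and 6.96 in larvae, and their ranges overlapped in both sets.

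Of the regulatory particle paralogs, Rpt6R (3R, 30582198 to 30583697, minus strand), a copy of the ATPase Rpt6, had 23.7 to 36.7 CPM in nonexercised males (34.1), 28.0 to 35.4 in exercised males (32.7) and 10.5 to 27.9 in larvae (20.1). Rpn12R (3L, 15041631 to 15042570, minus strand), a copy of the lid subunit Rpn12, had 18.3 to 26.4 CPM (23.2), 18.3 to 26.9 (23.5) and 5.10 to 13.3 (8.78) in these sets. Rpt3R (3R, 9754735 to 9756510, minus strand) and Rpt4R (3L, 11941912 to 11943485, plus strand), copies of the ATPases Rpt3 and Rpt4, had medians of 14.5 and 10.1 CPM in larvae, and in males 18.3 and 13.4 CPM without and 17.7 and 15.9 CPM with exercise. Rpn13R (X, 5131898 to 5132985, plus strand), a copy of the ubiquitin receptor Rpn13, had 6.22 to 9.89 CPM in nonexercised males (9.66), 7.59 to 10.8 in exercised males (8.87) and 1.81 to 5.34 in larvae (4.64). Per kb, the highest medians in nonexercised males were those of Prosalpha6T (25.7), Prosbeta5R1 (25.7), Rpn12R (24.6) and Rpt6R (23.6), and the lowest were those of Prosalpha4T1 (6.47) and Prosalpha3T (6.65). In larvae, Rpt6R (13.9) and Rpt3R (10.0) were highest and Prosbeta2R1 (3.66) was lowest.

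Rpn13R and Rpt3R were the paralogs with most counts in females. Rpn13R had 7 to 26 counts in each nonexercised female library (0.287 to 1.11 CPM) and 0 to 6 in each exercised female library (up to 0.282 CPM). Rpt3R had 4 to 11 counts in each nonexercised female library (0.173 to 0.449 CPM) and 6 to 22 in each exercised female library (0.282 to 0.982 CPM). Rpt6R followed with 27 and 14 counts over the 8 nonexercised and 8 exercised female libraries, and each of the other 12 paralogs had 0 to 8. Which cells of the females these counts came from was not measured.

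In the test of males against females, all 15 paralogs were upregulated in males, both in nonexercised flies, where 46.5% of 14095 tested genes were called higher in males, and in exercised flies, where 51.9% of 14210 were (edgeR quasi-likelihood F test, FDR under 0.05 and absolute Log2FC over 0.5). In the fit of the female libraries alone, 2 of the 15 passed the filter on low counts. The others entered these tests through the male libraries, so their calls were close to fixed in advance and add no support. Each paralog had all 8 male libraries above all 8 female libraries in both comparisons, a pattern found in 33.6% and 41.4% of all genes. Between nonexercised males and females, the ratio of summed CPM for the 14 paralogs with a count in females ran from 15.8-fold for Rpn13R (95% exact interval for counting error 13.0 to 19.3) and 55.1-fold for Rpt3R (42.9 to 71.9) to 1782-fold for Prosbeta5R1 (609 to 8643). Prosalpha4T1, with 0 counts in nonexercised females, was at least 343-fold higher in males, taking 3 counts over the group as the floor. With Prosalpha4T1 at that bound, the median over 15 paralogs was 828-fold. In exercised flies, Rpt3R had the lowest ratio (24.6-fold, 20.5 to 29.8), Rpn13R had 51.0-fold (35.6 to 75.8), and Prosalpha4T2, with 1 count in exercised females, had 4013-fold (720 to 158517). Prosbeta4R1, Prosbeta2R1, Prosbeta4R2 and Prosbeta5R1, with 0 counts in exercised females, were at least 475-, 592-, 1611- and 1637-fold higher, and the median over 15 was 556-fold with these at their bounds. Beside these results, 19 of the 20 testis markers were called higher and 1 lower in males in both comparisons. In the fit of the female libraries alone, 5 of the 20 passed the filter on low counts. The other markers entered through the male libraries, so their calls were also close to fixed in advance and add no support.

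Larvae lay between the adult sexes. Against nonexercised females, all 15 paralogs were upregulated in larvae (background 40.03% of 13575 genes) with no overlap between libraries (27.8% of all genes), by 7.29-fold for Rpn13R (5.94 to 9.02) to 1265-fold for Prosbeta4R1, which had 1 count in nonexercised females (226 to 50032). Prosalpha4T1 was at least 345-fold higher. In nonexercised females alone, 1 of the 15 passed the filter on low counts. The others entered this test through the larval libraries, so their calls were close to fixed in advance. Against nonexercised males, 11 of the 15 paralogs were downregulated in larvae (40.3% of 14271 genes were called lower), and in 7 of them all larval libraries lay below all male libraries (27.1% of all genes). The median Log2FC over the 15 was -0.76, while that of all genes was -0.06. The largest differences were those of Prosbeta5R1 (Log2FC -1.83, SE 0.18, adjusted p = 1.13e-06), Prosalpha6T (-1.63, SE 0.18) and Prosbeta4R2 (-1.63, SE 0.18), followed by Rpn12R (-1.30), Prosalpha4T2 (-1.27), Prosbeta2R1 (-1.18) and Rpn13R (-1.18). The other called paralogs were Prosalpha3T (-0.76), Rpt6R (-0.67), Prosbeta4R1 (-0.55) and Prosbeta5R2 (-0.51). The 4 that did not pass were Rpt3R (-0.37, adjusted p = 0.107), Rpt4R (-0.35, 0.0929), Prosbeta2R2 (-0.29, 0.117) and Prosalpha4T1 (-0.09, 0.667). When 1 library was left out, Prosbeta4R1 lost its call in 5 and Prosbeta5R2 in 6 of 16 fits, and with library totals alone all 15 were called. The testis markers were lower in larvae in 16 of 20 cases, and their part in the result was not tested.

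Relative to their parents, the paralogs were a sizeable share in males. In nonexercised males, the 15 paralogs summed per kb were 45.0% of their 11 parents (28.8% to 48.3% over the 8 libraries), and in exercised males 43.7% (32.3% to 50.3%). The share was 5.32% in larvae (2.76% to 8.67%), and in females 0.0909% without and 0.0698% with exercise. No male library overlapped a larval or female one. Single pairs in nonexercised males ran from 10.5% for Prosalpha3T to 71.6% for Rpt6R (44.4% to 78.9%), with Prosalpha6T at 65.9% (47.6% to 74.4%) and Rpn12R at 65.4% (42.3% to 74.4%). Where a parent had 2 copies, their sum was 49.1% of Prosalpha4, 57.0% of Prosbeta4, 55.5% of Prosbeta5 and 25.9% of Prosbeta2. In larvae the shares ran from 1.90% for Prosalpha3T to 11.4% for Rpt6R. No paralog had a higher median than its parent in any set. Summed per kb, the parents alone had medians of 931 in nonexercised females and 491 in nonexercised males, and with the paralogs added these were 932 and 696. Both sums were lower in nonexercised males than in nonexercised females.

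**Figure D3:**
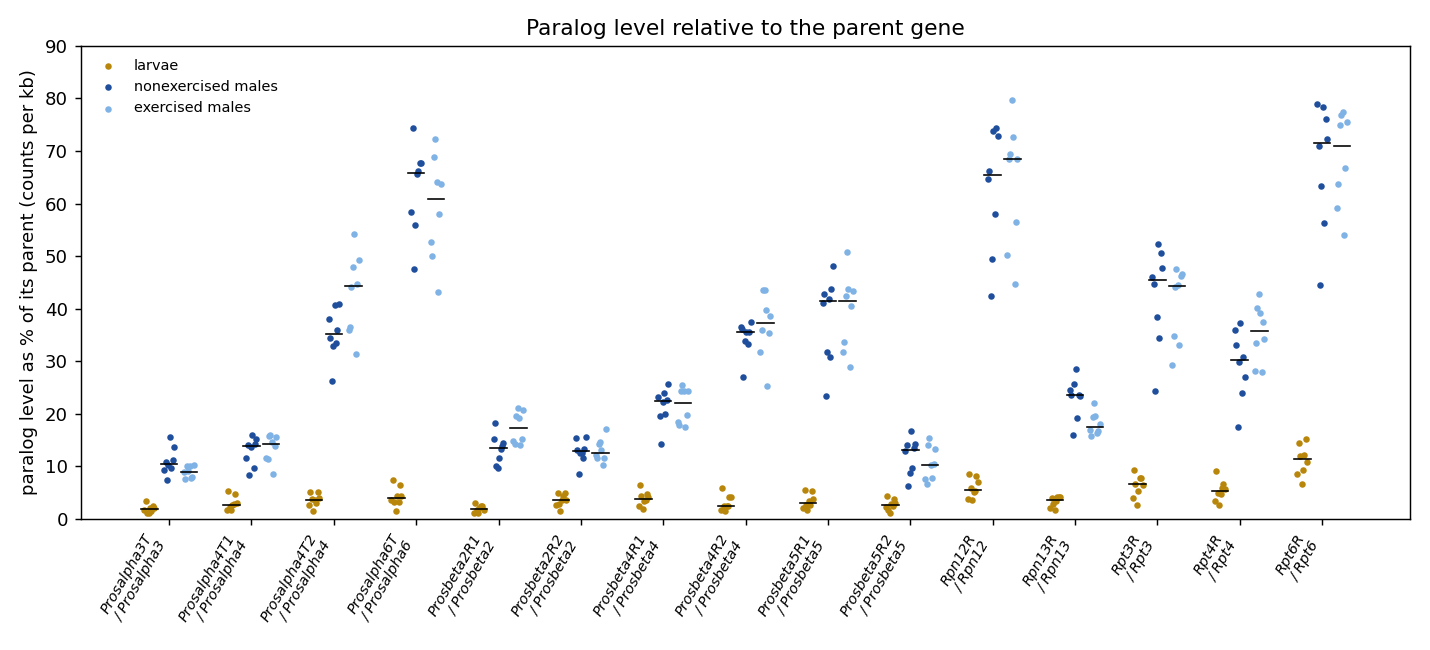
Level of each paralog as a percentage of its parent, from counts per kb of exon, with 1 point per library (8 libraries per set) and black bars at the medians. The nonexercised male medians run from 10.5% for Prosalpha3T to 71.6% for Rpt6R, and the larval medians from 1.90% to 11.4%.

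Canonical subunits were lower in males than in females. Their summed level had a median of 2105 CPM in nonexercised males (1949 to 2160) and 3373 CPM in nonexercised females (2700 to 4156), with no overlap. Of the 32 genes, 24 were downregulated in nonexercised males (background 33.6%) and none was upregulated, and 24 had all male libraries below all female ones (26.8% of all genes). The median Log2FC of the 32 was -0.71, while the median of all genes was 0.33. By part of the complex, 6 of 6 Rpt ATPases (median -0.91) and 10 of 12 Rpn subunits (-0.77) were downregulated, as were 5 of 6 alpha subunits without Prosalpha1 (-0.60), and 3 of 7 beta subunits (-0.40). The lowest were Prosalpha4 (Log2FC -1.19, SE 0.07, adjusted p = 1.19e-10), Prosalpha6 (-1.18, SE 0.07) and the lid subunit Rpn5 (-1.12, SE 0.06). Prosalpha4 had 87.6 to 158 CPM in nonexercised females (median 125.1) and 47.4 to 57.0 in nonexercised males (54.9). At the other end of those called were the ubiquitin receptor Rpn10 (-0.51, SE 0.06), Prosalpha2 (-0.53) and Prosalpha5 (-0.58). With size factors by relative log expression, in edgeR or DESeq2, these 3 fell under the fold threshold, and 17 subunits were called, all lower. Rpn10 also lost its call in 3 of 16 fits without 1 library. The 14 ovary and eggshell markers were all lower in males, and their part in the result was not tested. In the fit of larvae and nonexercised males, 6 of these 14 markers passed the filter on low counts. The others entered through the female libraries, so their calls were close to fixed in advance.

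In exercised flies, 30 of the 32 canonical subunits were downregulated in males (background 34.8%), and 31 had no overlap between the sexes (28.7% of all genes). The median Log2FC was -1.06, against 0.69 over all genes. Prosalpha4 was again lowest (-1.85, SE 0.08, adjusted p = 1.79e-10), at 157 to 229 CPM in exercised females (186) and 47.8 to 64.5 in exercised males (51.2). Rpn12 (-1.72, SE 0.08) and Prosbeta4 (-1.70, SE 0.07) followed. Those called with the smallest differences were Prosbeta7 (-0.56, SE 0.05), the caspase-like subunit Prosbeta1 (-0.63) and Rpn13 (-0.65). Prosbeta7 and Prosbeta1 fell under the fold threshold with relative log expression factors (-0.42 and -0.49), where 28 were called. With library totals alone these 2 (-0.18 and -0.25) and Rpn13 (-0.27), among others, did, 23 were called, and the median was -0.68, with all genes at 1.07. Rpn6, a lid subunit, was below the fold threshold (-0.36). The 11 parents had a median Log2FC of -0.92 in nonexercised flies (10 of 11 called) and -1.34 in exercised flies (11 of 11), and the 20 other canonical subunits without Prosalpha1 had -0.62 (14 of 20) and -0.95 (19 of 20). This split between parents and other subunits is a description without a test.

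Larvae had the highest canonical levels of the 5 sets, with a summed median of 7362 CPM (6306 to 8879). Every canonical subunit except Prosalpha1 was upregulated in larvae against nonexercised females (31 of 32, background 40.03%, no overlap in 31, median Log2FC 1.19, all genes 0.06) and against nonexercised males (31 of 32, background 34.4%, no overlap in 31 where 27.7% of all genes had none, median 1.92, all genes -0.06). The highest against females were Rpt3 (1.52, SE 0.07, adjusted p = 1.20e-09), Rpt2 (1.45) and the lid subunit Rpn3 (1.41), and the lowest were Prosbeta6 (0.64, SE 0.09), Prosbeta2 (0.72) and Prosbeta3 (0.74). Against males, the highest were Rpt3 (2.40, SE 0.08, adjusted p = 1.03e-10), Prosalpha6 (2.34) and the deubiquitinase Rpn11 (2.25), and the lowest Prosbeta6 (1.00), Prosbeta3 (1.05) and Rpn6 (1.36). Rpt3 had 203 to 305 CPM in larvae (238), and in nonexercised flies 73.5 to 104 CPM in females (85.8) and 41.7 to 50.3 CPM in males (43.5), so the 3 sets did not overlap. With library totals alone, without TMM, the median of all genes between larvae and nonexercised females moved to -0.51 and 20 canonical subunits were called, with a median of 0.61. Of all counts in larvae, 18.4% to 27.4% were on ribosomal RNA genes, and in nonexercised females 6.48% to 13.5%.

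**Figure D4:**
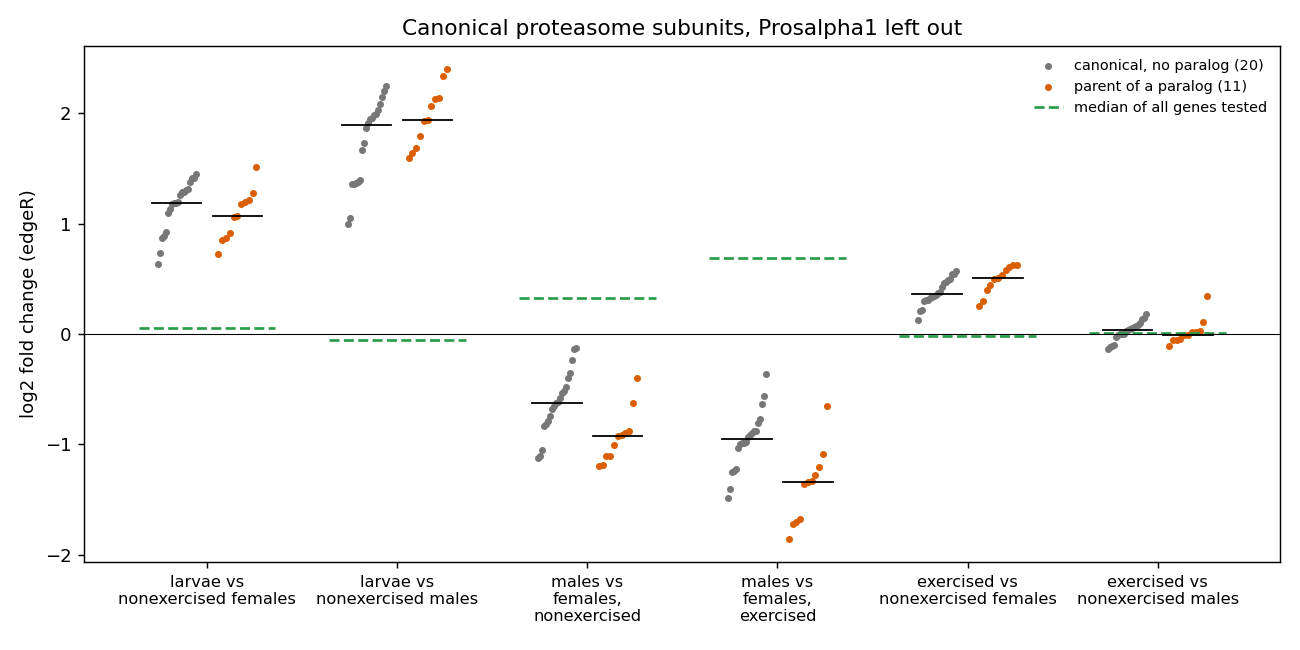
Log2 fold change of the 31 canonical subunits without Prosalpha1 in 6 comparisons, with the 20 subunits that have no paralog in grey and the 11 parents of a paralog in orange. Black bars are the medians of each group and green dashed lines the median of all genes tested. Nearly all points lie above 1 in larvae against nonexercised males, below 0 in males against females and near 0 in exercised against nonexercised males.

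Within a set, the canonical subunits varied little among themselves. Per kb, the median levels of the 31 genes spanned 1.91-fold in larvae, from 112 for Rpn13 to 215 for Rpt1, and 2.98-fold in exercised females, from 56.5 for Rpn2 to 169 for Prosbeta5. In nonexercised males they spanned 2.88-fold, with medians over the genes of 63.1 for the alpha ring, 73.5 for the beta ring, 38.4 for Rpn and 34.5 for Rpt. The paralogs in nonexercised males spanned 6.47 to 25.7 per kb.

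After exercise, canonical subunits were higher in females, and the difference depended on the scaling. Their summed level was 4478 CPM in exercised females (3882 to 4873) and 3373 CPM in nonexercised females (2700 to 4156), with overlapping libraries. With TMM scaling, 11 of the 32 were upregulated (background 16.2%) and none was downregulated, with a median Log2FC of 0.42 (all genes -0.02), and 2 had no overlap (5.99% of all genes). The highest were Prosalpha4 (0.63, SE 0.08, adjusted p = 3.47e-05), Rpn12 (0.62) and Rpn13 (0.61), and the lowest called were Prosbeta4 (0.50), Rpn3 (0.50) and Prosbeta5 (0.51). By part, 5 of 6 alpha subunits without Prosalpha1, 2 of 7 beta, 4 of 12 Rpn and 0 of 6 Rpt passed. With library totals alone, no canonical subunit was called, and the medians were 0.24 for the subunits and -0.19 for all genes. Without R820W nonexercised females replicate 2, or without R820W exercised females replicate 1, 7 were called, and Prosbeta4, Rpn3 and Prosbeta5 lost their calls in 6, 4 and 3 of 16 such fits. In exercised females the 5 muscle markers were all called lower (summed 584 to 1251 CPM, against 1374 to 5050), as were 5 of 6 tested larval markers. Of all genes tested there, 25.5% were called lower. Of the 14 ovary and eggshell markers, 3 were called higher and 5 lower (16.2% and 25.5% of all genes). Their summed median was 3516 CPM in exercised and 4221 CPM in nonexercised females. The part of these markers in the result was not tested.

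The paralogs Rpn13R and Rpt3R, which alone passed the filter on low counts in females, differed with exercise in opposite directions. Rpn13R was downregulated in exercised females (Log2FC -1.77, SE 0.33, adjusted p = 0.000495, background 25.5% called lower), and all 8 exercised libraries lay below all 8 nonexercised ones (10.6% of all genes). Rpt3R was upregulated (1.10, SE 0.23, adjusted p = 0.00101) with overlapping libraries. These rest on 112 against 30 counts for Rpn13R and 63 against 117 for Rpt3R. The 5 accessory gland markers, which mark male tissue, had a summed 0.653 to 1.43 CPM in nonexercised females and 0 to 0.282 CPM in exercised females. Of the 5 testis markers tested there, 4 were called lower and 1 higher. Their part in the result was not tested.

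In males, neither canonical subunits nor paralogs were called with exercise, where 11.3% of 14090 genes were. The counts were 0 of 32 and 0 of 15 by edgeR and by DESeq2, and 12 and 3 had an unadjusted p under 0.05 in edgeR, as had 6514 of 14090 genes. The median Log2FC was 0.01 for canonical subunits and -0.02 for paralogs (all genes 0.01). The largest among the paralogs were Prosbeta2R1 (0.34, SE 0.07, adjusted p = 0.00163) and Rpt4R (0.30, SE 0.09, adjusted p = 0.0189), both under the fold threshold. With library totals alone, 1 canonical subunit and 3 paralogs were called, and the median of all genes moved to 0.31.

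The effect of exercise was tested between the sexes as an interaction, in which 8.75% of 14457 genes were called lower and 19.6% higher in males than in females. Of the canonical subunits, 9 were called, all lower (alpha 6 of 6 without Prosalpha1, beta 2, Rpn 1 and Rpt 0), with a median of -0.45 (all genes 0.11). Those with the largest differences were Prosalpha4 (-0.71, SE 0.10, adjusted p = 2.50e-05), Prosalpha5 (-0.71, SE 0.09) and Rpn12 (-0.67, SE 0.11), and those closest to the threshold were Prosalpha2 (-0.50), Prosalpha3 (-0.51) and Prosbeta5 (-0.52). With library totals alone none was called, Prosalpha2 was at 0.0047, and the median of all genes moved to 0.59, while with relative log expression factors 14 were called. The median share of 7SL RNA was 13.9% in nonexercised and 2.45% in exercised males, and 7.62% and 12.3% in females. For ribosomal RNA it was 9.52% and 4.94% in males, and 7.53% and 15.8% in females. The part of these shares in the result was not tested. Prosalpha2, Prosalpha3 and Prosbeta5 lost their calls in 14, 9 and 10 of 32 fits without 1 library. Rpn13R was higher (1.74, SE 0.30, adjusted p = 0.000119) and Rpt3R lower (-1.19, SE 0.23, adjusted p = 0.000271). For the other paralogs the female counts were too few for an interaction to be read.

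Among the genotypes, the paralog Prosbeta5R2 was the only member called. Against attP2 in exercised males, it was upregulated in the WT line (Log2FC 1.04, adjusted p = 0.0182, background 1.14% of genes called) and in the R820W line (0.75, adjusted p = 0.0488, background 0.841%). Its level was 7.71 and 6.89 CPM in the 2 attP2 libraries, 14.5 and 14.6 in WT, 10.5 and 9.21 in A31P and 11.4 and 12.5 in R820W, so each transgenic library lay above both attP2 libraries. Over 16 alternatives the adjusted p ran from 1.52e-05 to 0.247 for WT and from 0.00699 to 0.327 for R820W (edgeR, DESeq2 and left-out libraries), and both differences missed the threshold when either attP2 or either WT library was left out. In nonexercised males, Prosbeta5R2 had 7.29 and 9.69 CPM in attP2, 13.3 and 12.8 in WT, 12.6 and 13.0 in A31P and 15.7 and 10.4 in R820W, and was not called. Over the 15 comparisons with attP2, which share the attP2 libraries of each set, these were 2 calls among the members. Each comparison tested 32 canonical subunits and 1 or 15 paralogs. The share of members called was thus not above the pooled background of 0.431%. No member was called in the 10 comparisons with WT (0.202%), where the most unadjusted p under 0.05 were for 16 of 32 canonical subunits in R820W nonexercised females, as they were for 3666 of 11063 genes, with a median Log2FC of the subunits of -0.29. When single libraries were left out, these counts changed. With attP2 nonexercised males replicate 2 left out, 19 calls were made against attP2. With A31P exercised males replicate 1 or 2 left out there were 5, with R820W exercised males replicate 1 or 2 there was 1, and with either attP2 or either WT exercised male library there were 0. Against WT, 3 calls were made without R820W nonexercised females replicate 1 (Rpn11, Prosalpha6 and Prosalpha4) and 2 without A31P exercised males replicate 1 (Prosbeta5R2 and Prosalpha4T1), named after their values were seen.

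The mean summed paralog level was lowest in attP2 in larvae and in both male sets, as was that of the testis markers, though single libraries overlapped. In larvae the paralog sums were 112 and 55.7 CPM in attP2, 178 and 141 in WT, 110 and 194 in A31P and 134 and 118 in R820W, and the testis marker sums of the same libraries were 477 and 267, 885 and 635, 478 and 924, and 656 and 514. Both sums were lowest in attP2 replicate 2 and highest in A31P replicate 2. In nonexercised males the paralog sums were 184 and 242 CPM in attP2, 273 and 273 in WT, 259 and 255 in A31P and 262 and 229 in R820W, with testis marker sums of 1844 and 2399, 2565 and 2509, 2370 and 2353, and 2519 and 2389. In exercised males they were 214 and 227 CPM in attP2, 282 and 283 in WT, 268 and 226 in A31P and 259 and 266 in R820W, with testis marker sums of 2031 and 2161, 2578 and 2655, 2509 and 2036, and 2470 and 2518. A31P exercised males replicate 2, the library with 2196 CPM of ovary and eggshell markers, was within the attP2 range for both.

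Gene by gene, the WT line had more paralogs above attP2 than the other lines in each of these sets. In larvae, 13 of 15 paralogs had both WT libraries above both attP2 libraries (23.8% of all genes did), as did 18 of 20 testis markers, and the ratio of the mean sums was 1.90 for paralogs and 2.04 for testis markers. In exercised males these were 14 of 15 and 18 of 20 (25.1%), with ratios of 1.28 and 1.25, and in nonexercised males 11 of 15 and 10 of 20 (20.3%), with 1.28 and 1.20. For A31P, 6 of 15 paralogs were above in larvae (15.3%), 8 in nonexercised males (19.5%) and 7 in exercised males (16.95%), and for R820W 7 (17.8%), 4 (17.4%) and 12 (23.7%). The median Log2FC of the 15 in WT, A31P and R820W against the shared attP2 libraries was 0.91, 0.75 and 0.59 in larvae, and in males 0.41, 0.29 and 0.22 without and 0.34, 0.21 and 0.27 with exercise. The part of testis tissue in these differences was not tested. In the same order of sets, testis markers were above attP2 in 7, 6 and 4 of 20 cases for A31P, and in 12, 5 and 16 for R820W. Of 31 canonical subunits without Prosalpha1, 21, 18 and 5 were above in larvae for WT, A31P and R820W (23.8%, 15.3% and 17.8% of all genes), with 0 below. In nonexercised males 7, 3 and 1 were above and 11, 19 and 11 below, and in exercised males 7, 6 and 9 above and 7, 0 and 3 below.

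**Figure D5:**
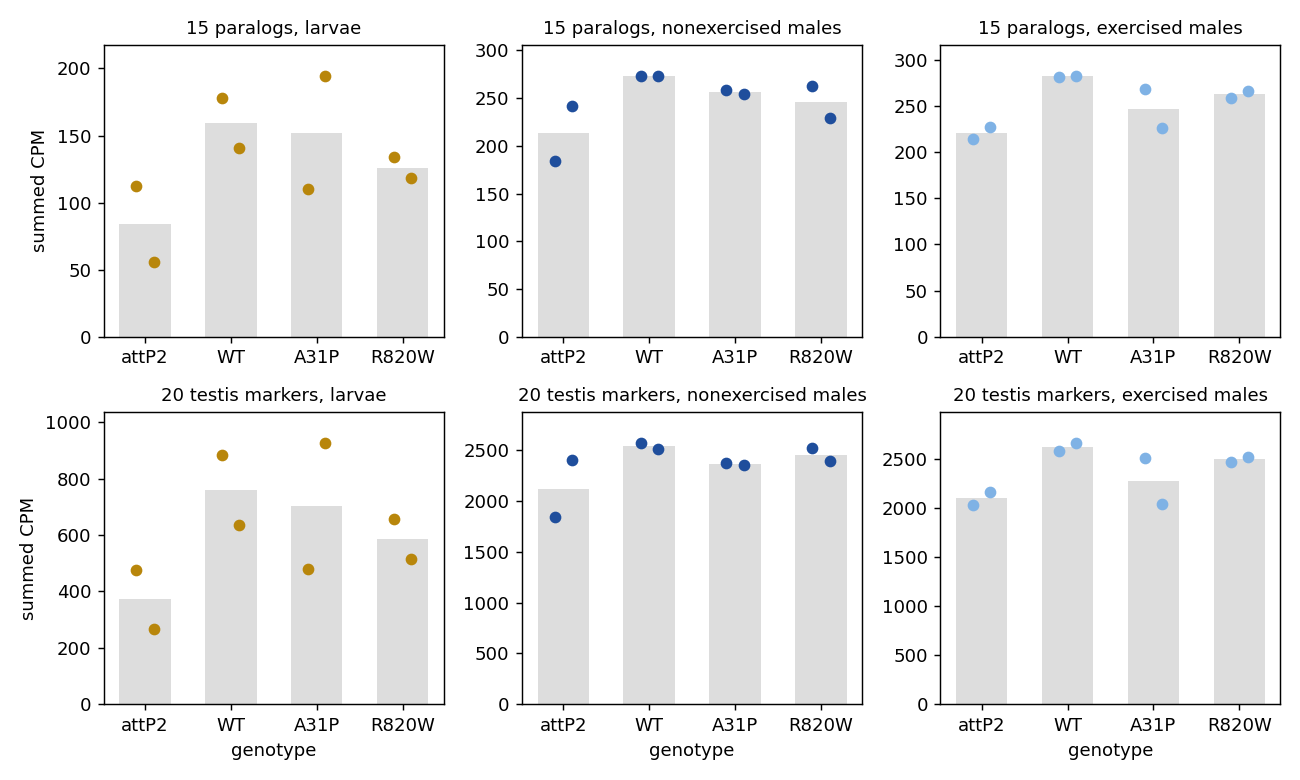
Summed CPM of the 15 paralogs (top) and of the 20 testis markers (bottom) by genotype in larvae, nonexercised males and exercised males. Bars are the means of 2 libraries and points are the libraries. The attP2 bar is the lowest in each panel, and the 2 points of a genotype lie far apart in A31P larvae (110 and 194 CPM for paralogs).

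Other genes of the pathway were called in both directions, and their counts are given beside the share of all genes. Of 14 assembly factors, activators and partners, 6 were lower and 3 higher in nonexercised males (median Log2FC -0.45), where 33.6% of all genes were lower and 46.5% higher, and 10 and 2 in exercised males (34.8% and 51.9%). The lower ones included the proteasome activator REG (-1.79 in nonexercised and -1.75 in exercised flies), the small lid subunit Sem1 (-1.33 and -1.64) and the ubiquitin shuttle Rad23 (-1.23 and -1.68), and the higher ones the regulator PI31 (0.92 and 0.74). Uch-L5R, a copy of the deubiquitinase Uch-L5, was also called higher in males, while Uch-L5 was lower (-0.52 and -0.72). In the fit of the female libraries alone, 13 of the 14 genes passed the filter on low counts. A higher call in males on the remaining gene was close to fixed in advance. In larvae, 9 of the 14 were higher and 2 lower than in nonexercised females (40.03% of genes higher, and 4612 of 13575 lower), and 10 and 2 against nonexercised males (34.4% and 40.3%), with the assembly chaperone Pomp at 1.48 and 1.52 and Npl4, a cofactor of the segregase TER94, at -1.38 and -2.05. With exercise, 1 of 13 tested was called in females (p47, 0.61, beside 16.2% of genes higher) and 0 of 14 in males (11.3% called). In the interaction, 1 was called (Rad23, -0.50, beside 8.75% lower).

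Of 5 ubiquitin genes, 3 were lower in nonexercised males, namely the ribosomal fusion genes RpS27A (-1.54) and RpL40 (-1.25) and the activating enzyme Uba1 (-1.07), and the polyubiquitin gene Ubi-p63E was higher (0.95), beside 33.6% and 46.5% of all genes. None of the 5 was called with exercise in either sex. Of 3 regulators of proteasome genes, the transcription factor cnc was higher in larvae than in nonexercised females (0.72) and males (0.85), where 40.03% and 34.4% of genes were, its partner maf-S was not called in any comparison, and Keap1, which restrains cnc, was higher in exercised than nonexercised males (0.77, beside 11.3% called), but not called in females (-0.25), with an interaction of 0.98 (adjusted p = 5.96e-08, 19.6% of genes higher). Of 6 genes of the testis ubiquitin ligase and of sperm individualization, Cul3 (1.13), ntc (1.80), soti and Roc1b were higher (4 of 6, beside 46.5% of genes) and the deubiquitinase scny lower (-0.83) in nonexercised males, with Bruce not called (0.12). In the fit of the female libraries alone, 4 of these 6 genes passed the filter on low counts. The others entered through the male libraries, so any call on them was close to fixed in advance.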

How the data were processed

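Total RNA of whole flies was depleted of ribosomal RNA, and directional single-read libraries were sequenced. Gene counts, as deposited by the authors, were made in CLC Genomics Workbench, and the submitters' processing notes also name bcl2fastq, FastQC, cutadapt and TopHat. The aligner settings, the strand setting and the treatment of reads with several hits are not given in the sources used here. The TPM values deposited by the authors were used only to check exon lengths (0 of 1752 values off by over 0.5 base). Coordinates are those of the table, release 6 of the genome, and equal the reference annotation for all 47 members.

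Counts were tested with edgeR 4.0.16 in R 4.3.3 (quasi-likelihood F test, TMM, filterByExpr with a minimum count of 10 and total of 15, Benjamini-Hochberg adjustment over all genes of a fit). Genes with adjusted p under 0.05 and absolute Log2FC over 0.5 were called. Stage, sex and exercise contrasts averaged the 4 genotypes, and genotype contrasts were fitted in the 8 libraries of a set. A fold against a group at 0 used a floor of 3 counts over the group, and intervals are 95% exact intervals that cover counting error only. The study's methods call the 2 pools of a group biological replicates and do not say whether they came from separate cultures, so p-values measure the spread between these pools. Replicates of a group had equal counts in at most 4.17% of genes and were kept as separate samples. In simulated counts with 200 changed genes, the nonexercised sex comparison recovered 89.9% of 2-fold changes (13827 genes) and A31P against attP2 in larvae 18.3% (12721 genes). A31P against attP2 in exercised males recovered 54.9% (13838 genes), and 7.36% of its calls were on unchanged genes. All genes but the 200 were simulated with the same mean in every group. In the data, 46.5% of genes were called higher and 33.6% lower in nonexercised males than in females. The simulated rates were not measured for differences that wide.

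The replicate number was the lane in larvae and nonexercised flies per the labels, and same-numbered libraries deviated from their group means with correlations of -0.31 to 0.55 in larvae, and in nonexercised flies of 0.09 to 0.48 (females) and -0.08 to 0.12 (males). Alternatives were DESeq2 1.42.0, relative log expression factors, library totals without TMM, totals without ribosomal and 7SL RNA, no filter, a likelihood ratio test, fits of the 2 compared groups alone, a replicate block, and single libraries left out. Named genes are all paralogs and their parents, the 3 highest and 3 lowest called canonical members of a comparison, and every member called between genotypes; CG30382, which the rule does not match, was added after its values were seen. The members and gene lists were chosen with earlier results of these data known. The gene klhl10 of the testis ubiquitin ligase list was not analysed here.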

Additional observations from a re-analysis of the deposited data

Results flagged for a closer look

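The Log2FC of exercised against nonexercised flies differed between the sexes in 11 members by the edgeR interaction test (male minus female, TMM scaling). Sex and lane cannot be told apart among the exercised flies. The 9 canonical subunits were Prosalpha4 (-0.71; 0.63 in females and -0.05 in males), Prosalpha5 (-0.71), Rpn12 (-0.67), Prosbeta4 (-0.64), Prosalpha7 (-0.55), Prosalpha6 (-0.55), Prosbeta5 (-0.52), Prosalpha3 (-0.51) and Prosalpha2 (-0.50), none of which was called with library totals alone. The paralog Rpt3R differed by -1.19 (1.10 in females, -0.06 in males) and Rpn13R by 1.74 (-1.77 in females, 0.00 in males), on few female counts.

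The summed canonical level in A31P exercised males replicate 2 was 2396 CPM, and the other 7 exercised male libraries had 2051 to 2197 CPM. The gap was 0.576 of the range of the set, above the critical value of 0.526 for 8 samples, and this was 1 of 55 sets of values looked at, where chance gives about 1 in 20. The same library held 2196 CPM of ovary and eggshell markers.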

How the results depend on the processing

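Of 4606 values recomputed under an alternative, 4378 kept their direction, side of the threshold or size, 119 moved, 101 lost and 5 gained a call, and 3 turned their sign. With library totals in place of TMM, called canonical subunits went from 31 to 20 in larvae against nonexercised females, from 11 to 0 with exercise in females, from 0 to 1 with exercise in males and from 9 to 0 in the interaction, where Prosalpha2 turned from -0.50 to 0.0047, and called paralogs went from 0 to 3 with exercise in males. With relative log expression factors and with DESeq2, 14 canonical subunits were called in the interaction. In the genotype comparisons with attP2, 2 member calls became 8 with the likelihood ratio test, 4 with fits of the 2 compared groups alone, and 5 without the 2 exercised male libraries that held ovary and eggshell markers. In those with WT, 0 became 2 and, without these libraries, 1. With 0.5 added to both counts, the paralog share of the parents in exercised females was 0.0946% (0.0698% without).

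With the replicate number as a block, no count of called members in a stage, sex or exercise comparison moved by over 1.5 times, and Prosbeta5R2 in R820W exercised males, a set in which the number does not mark the lane, had an adjusted p of 0.0663. When 1 library was left out, the canonical calls with exercise in females ran from 7 to 14, member calls against attP2 from 0 to 19 and against WT from 0 to 3, and Prosalpha4T1 in larvae against nonexercised males from -0.28 to 0.050 (without A31P larvae replicate 1), with 0.0024 without attP2 nonexercised males replicate 2. The counts of the other comparisons stayed within 1.5 times. The cause of these changes was not tested. In females, 12 of 15 paralogs had 8 or fewer counts over 8 libraries, which limits any comparison of them there.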
